A study of Mus musculus with 6 samples.

Results

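The genes described here are 8 mouse non-coding genes that carry small nucleolar RNAs (snoRNAs) inside their transcripts: Gas5, Zfas1, Snhg1, Snhg3, Snhg5, Snhg6, Snhg8 and Snhg12. They were taken by symbol from a deposited table of 24421 gene rows, and all 8 had a row. Zfas1 is listed there under its older name 1500012F01Rik, which the RefSeq gene table gives as a synonym. The table comes from RNA sequencing of 2838c3, 6419c5 and 6499c4, which are 3 mouse tumour cell lines of pancreatic ductal adenocarcinoma, all at passage 15 to 20. Each line was kept for 16 hours with G-1, a small molecule that activates the oestrogen receptor GPER of the cell membrane, at 250 nM, or with its solvent DMSO (vehicle). There was 1 library per line and treatment, so that 3 G-1 libraries were set against 3 vehicle libraries. No genotype or other agent is given in the labels, and nothing there says whether the libraries of a line came from separate cultures.

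SnoRNAs are short nuclear RNAs that guide chemical changes of ribosomal RNA. Box C/D snoRNAs, whose genes are called Snord, guide ribose methylation, and box H/ACA snoRNAs, called Snora, guide the conversion of uridine to pseudouridine. Most vertebrate snoRNAs are cut out of introns: the host transcript is spliced, the introns are trimmed down to the snoRNA, and the spliced remainder is exported. In the 8 hosts that remainder codes for no long protein. Several such transcripts begin with a run of pyrimidines, as messages of ribosomal proteins do, and are degraded by nonsense-mediated decay when they are translated.

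In the GENCODE M21 annotation of GRCm38 the 8 hosts held 30 annotated snoRNA genes on their own strand. Of these, 9 had a row in the table under their GENCODE name, which is what a row means below. Synonyms were searched for the hosts but not for the snoRNAs, so others of the 30 may be listed under another name. Gas5 (chr1:161034422-161038539, plus strand) held 9 and Snhg1 (chr19:8723475-8726443, plus) held 8, but each had only 1 with a row, Snord47 in Gas5 and Snord22 in Snhg1. Snhg12 (chr4:132308623-132311024, plus) held 4, all with a row: Snora16a, Snora44, Snora61 and Snord99. Zfas1 (chr2:167062934-167065862, plus) held 3, of which Snord12 had a row. Snhg6 (chr1:9941959-9944118, minus) held Snord87, and Snhg8 (chr3:123507552-123508404, minus) held Snora24. Snhg3 (chr4:132348014-132353686, minus) and Snhg5 (chr9:88521050-88522929, minus) held 2 each, none of them with a row. Of the 30, 28 overlapped an annotated exon of some transcript of their host, and the exceptions were Snord87 and Snora73b.

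**Figure D1:**
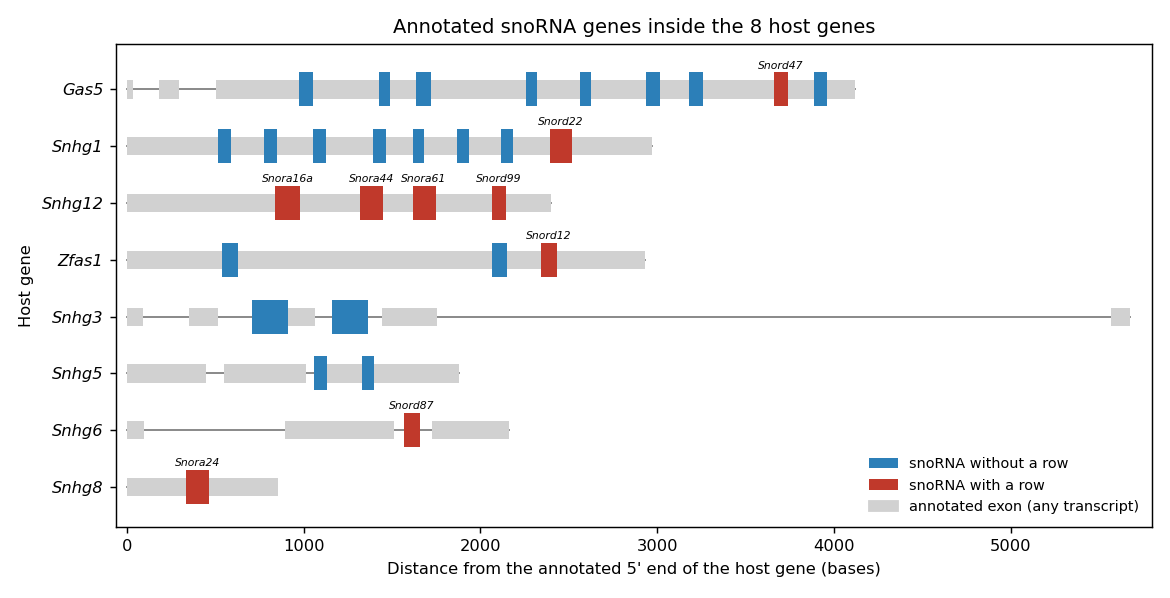
Each row is 1 host gene drawn from its annotated 5′ end (horizontal axis, bases), with exons of any transcript in grey, snoRNA genes that have a row in the table in red and those without a row in blue. Snhg12 is the host in which all 4 snoRNA genes have a row under their GENCODE name, and Gas5 has such a row for 1 of 9.

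The sequences of 4 hosted snoRNAs on which the comparisons below turn are shown 5′ to 3′, as DNA letters of the GENCODE transcripts. In Snord47 (chr1:161038082-161038158, plus) and Snord12 (chr2:167065276-167065365, plus), capitals mark TGATGA, a form of box C, and CTGA, box D. In Snord22 (chr19:8725866-8725991, plus) only CTGA was found in the searched ends. In Snora61 (chr4:132310240-132310369, plus), capitals mark a match to ANANNA, box H, in the middle and the closing ACA.
Snord47: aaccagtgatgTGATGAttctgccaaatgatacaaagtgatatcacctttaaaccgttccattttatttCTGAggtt
Snord12: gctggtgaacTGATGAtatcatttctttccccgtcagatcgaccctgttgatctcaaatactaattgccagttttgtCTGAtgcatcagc
Snord22: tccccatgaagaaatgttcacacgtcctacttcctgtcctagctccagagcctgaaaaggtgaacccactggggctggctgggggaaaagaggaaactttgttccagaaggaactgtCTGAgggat
Snora61: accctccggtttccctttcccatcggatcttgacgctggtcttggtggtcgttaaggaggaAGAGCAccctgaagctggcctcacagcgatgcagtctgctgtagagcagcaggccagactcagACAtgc
Among the 97 annotated Snord genes, 71.1% held TGATGA in the first 20 bases and 97.9% held CTGA in the last 22 bases, on the transcribed strand. Among the 40 annotated Snora genes, 95% held ACA in the last 8 bases. A match is a description of the letters and not proof of a working box.

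The start of a host transcript is where a pyrimidine run would lie. For 7 hosts the RefSeq promoter table (GRCm38.p6) gave a start, and the longest run of C or T in the 40 bases around it is in capitals in the examples below, which were chosen to show long and short runs.
Snhg1: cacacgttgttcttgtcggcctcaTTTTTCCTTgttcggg
Snhg12: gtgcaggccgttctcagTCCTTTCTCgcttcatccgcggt
Snhg8: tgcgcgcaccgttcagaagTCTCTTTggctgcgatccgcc
Zfas1: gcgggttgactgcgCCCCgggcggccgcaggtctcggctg
These windows are chr19:8723467-8723506 (plus), chr4:132308658-132308697 (plus), chr3:123508317-123508356 (minus) and chr2:167062914-167062953 (plus). The runs of 9 bases in Snhg1 and Snhg12 began 4 bases after and 3 bases before the start, and 10.7% of 32851 promoter windows held a run at least as long. Runs of at least 7 bases, as in Snhg8 and Snhg5, occurred in 24.3% of windows, and the run of 4 in Zfas1 was reached by 78.6%.

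The libraries held 5455990 to 8890821 reads in genes, and 13071 to 13627 genes were above 0 in each. Values are FPKM, reads per kilobase of counted gene length on the authors' library scale, and whole reads could be recovered from them. A listed 0 allows up to 3 reads, or 0.337 to 0.55 RPM (reads scaled to library totals) over the 6 libraries. The labelled cell type was checked on markers: all 8 ductal or tumour epithelial genes were detected, with a summed level of 3536 to 5965 FPKM in G-1 libraries and 3534 to 6102 FPKM in vehicle libraries. The 6 fibroblast markers were each below 1 FPKM in every library, Col1a2 and Dcn at 0, and the 3 islet markers were at 0. Summed leukocyte markers reached 1.65 to 3.35 FPKM in G-1 libraries and 0.788 to 2.62 in vehicle libraries, endothelial markers 0.121 to 1.01 and 0.02 to 1.58, and acinar markers 0.166 to 7.31 and 0.633 to 3.91, with 3 of the 4 acinar genes at 0. In bulk RNA, fewer cells with a transcript and less of it per cell cannot be told apart.

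All 8 hosts were expressed in every library, and together they took 482, 495 and 491 RPM in the G-1 libraries of 2838c3, 6419c5 and 6499c4, against 494, 471 and 435 in the vehicle libraries. Over the 6 libraries the mean levels, per length, ran in the order Snhg1 (160 ± 14.9 FPKM), Zfas1 (92.2 ± 16.6), Snhg6 (77.8 ± 16), Gas5 (65.5 ± 7.42), Snhg5 (58.6 ± 13.5), Snhg3 (46.3 ± 10.2), Snhg8 (39.7 ± 7.73) and Snhg12 (32.1 ± 6.09; SD, n = 6 libraries). Snhg1 was the highest host in each library, and its lowest value, 135 FPKM, lay above the highest value of any other host, 108 FPKM in Zfas1. Every other pair of neighbours in this order overlapped in range. Zfas1 was next after Snhg1 in 2838c3 and 6419c5, and Snhg6 took that place in 6499c4. The order depends on the length that was counted, which was 16.8% of the RefSeq gene span for Snhg1, 64.8% for Gas5 and 100% for Snhg8.

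**Figure D2:**
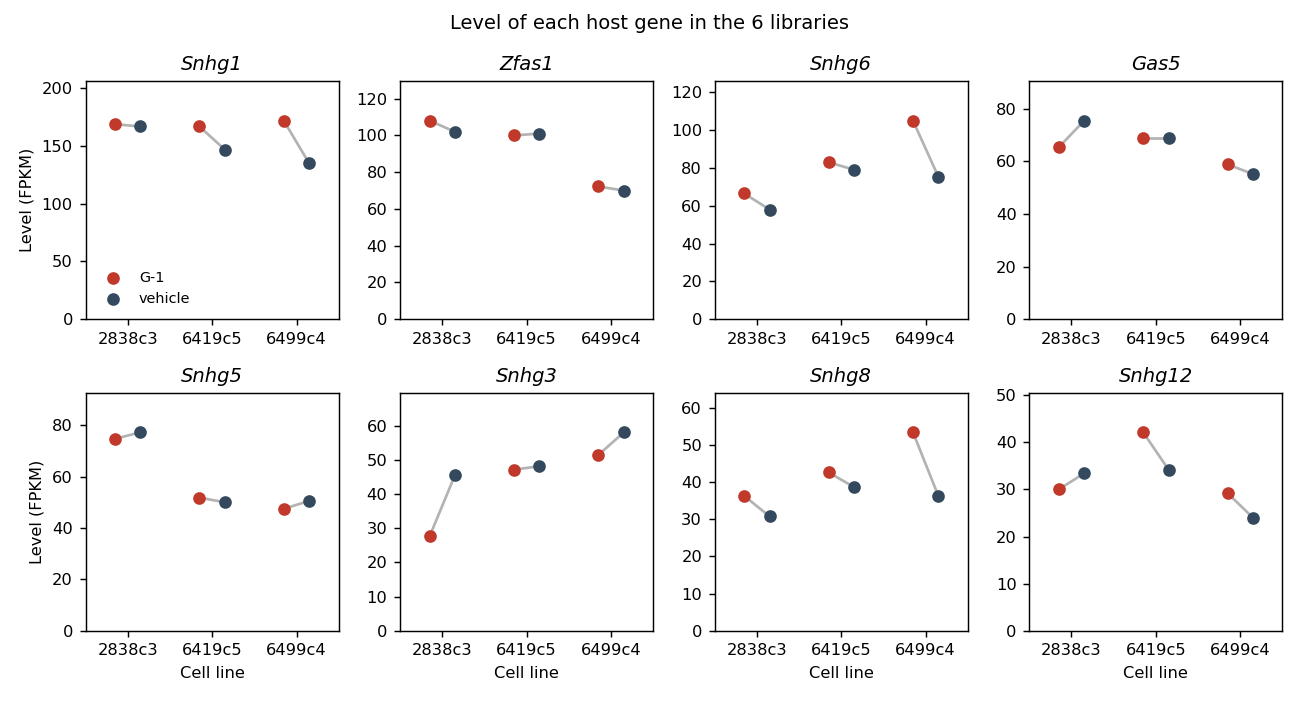
Each panel is 1 host, with the level in FPKM on the vertical axis (from 0) and the 3 lines on the horizontal axis, G-1 libraries in red left of vehicle libraries in blue, 1 library per point. Snhg6 and Snhg8 are highest in the G-1 library of 6499c4 (105 and 53.4 FPKM), Snhg5 is high in both libraries of 2838c3, and Zfas1 is low in both libraries of 6499c4.

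G-1 against vehicle asks whether the agonist changed the hosts over the 3 lines. None of the 8 hosts passed in limma, where 0.0279% of the 10748 genes tested did (3 genes, with 0.0093% higher and 0.0186% lower). At an unadjusted p under 0.05 there were 4 hosts, Snhg8, Snhg6 and Snhg1 with higher and Snhg3 with lower means under G-1, against 10.1% of all genes. No host passed in limma-voom on the recovered reads either. The median log2 difference of the hosts was 0.09, and that of all genes tested was -0.01. Snhg1, Snhg6 and Snhg8 were higher under G-1 in all 3 lines (15.4% of all genes were), and Snhg3 was lower in all 3 (17.5% of all genes were).

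Snhg8, the host of Snora24, had 36.3, 42.6 and 53.4 FPKM in the G-1 libraries of 2838c3, 6419c5 and 6499c4, against 30.8, 38.7 and 36.3 FPKM in the vehicle libraries. The groups overlapped, because the G-1 library of 2838c3 lay below the vehicle library of 6419c5. The mean log2 difference was 0.30 (SE 0.09, 95% interval 0.10 to 0.51, higher in 3 of 3 lines, limma adjusted p = 0.369). It was 0.18 without 6499c4, the line with the widest difference.

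Snhg6, the host of Snord87, had 66.5, 83 and 105 FPKM in the G-1 libraries in the same order of lines, against 58, 79.1 and 75.4 FPKM in the vehicle libraries. The G-1 library of 6499c4 stood above the other 5, and the groups overlapped. The mean log2 difference was 0.24 (SE 0.08, interval 0.05 to 0.44, limma adjusted p = 0.42), and 0.13 without 6499c4.

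Snhg1, the host of Snord22, a C/D box RNA, and of other annotated snoRNA genes, had 169, 167 and 172 FPKM in the G-1 libraries, against 167, 147 and 135 FPKM in the vehicle libraries. The 3 G-1 values were close together (169 ± 2.08 FPKM) while the vehicle values were spread (150 ± 15.9 FPKM; SD, n = 3 each). The lowest G-1 value, in 6419c5, and the highest vehicle value, in 2838c3, both round to 167 and kept the groups just apart, in a pattern that 1.02% of all genes had with every G-1 library above every vehicle library. The mean log2 difference was 0.18 (SE 0.07, interval 0.02 to 0.35, limma adjusted p = 0.466), and 0.10 without 6499c4.

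Snhg3, the host of the Snora73 pair, H/ACA RNAs that take part in the processing of ribosomal RNA, had 27.6, 47.1 and 51.4 FPKM in the G-1 libraries, against 45.5, 48.1 and 58 FPKM in the vehicle libraries. The G-1 library of 2838c3 stood far below the other 5, and the rest of the 2 groups overlapped. The mean log2 difference was -0.30 (SE 0.12, interval -0.58 to -0.02, limma adjusted p = 0.477), and -0.10 without 2838c3.

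The other hosts differed less between the treatments. Gas5, named for its accumulation in growth-arrested cells, had 65.4, 69 and 58.9 FPKM in the G-1 libraries, against 75.5, 69 and 55.2 FPKM in the vehicle libraries. Its log2 difference was -0.04 (SE 0.07, interval -0.21 to 0.13, limma adjusted p = 0.89), lower in 2838c3, higher in 6499c4 and near 0 in 6419c5. Zfas1, whose 5′ end faces that of Znfx1 on the other strand, had 108, 100 and 72.2 FPKM in the G-1 libraries, against 102, 101 and 70 FPKM in the vehicle libraries, a log2 difference of 0.03 (interval -0.10 to 0.16, limma adjusted p = 0.875). Its lines differed more than its treatments did. Snhg5, the host of the Snord50 pair, had a log2 difference of -0.03 (interval -0.17 to 0.11, limma adjusted p = 0.901). Snhg12 had 30, 42.1 and 29.2 FPKM in the G-1 libraries, against 33.4, 34.2 and 24 FPKM in the vehicle libraries, a log2 difference of 0.14 (interval -0.09 to 0.37, limma adjusted p = 0.655), which was 0.28 without 2838c3, 0.06 without 6419c5 and 0.07 without 6499c4.

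Within single lines, the ratio of scaled reads, G-1 over vehicle, could be set against counting error alone. Of the 24 ratios of 8 hosts in 3 lines, the exact 95% interval spanned 1 in 19, lay above 1 in 3 and lay below 1 in 2. The 3 above were all in 6499c4: Snhg8 with 1.47 (1.25 to 1.73), Snhg6 with 1.39 (1.18 to 1.63) and Snhg1 with 1.27 (1.13 to 1.42). The 2 below were both in 2838c3: Snhg3 with 0.608 (0.471 to 0.781; 103 reads under G-1 against 170 under vehicle) and Gas5 with 0.866 (0.806 to 0.93; 1425 against 1651 reads). These intervals compare pairs of libraries and not the treatments, since no treatment was repeated within a line.

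**Figure D3:**
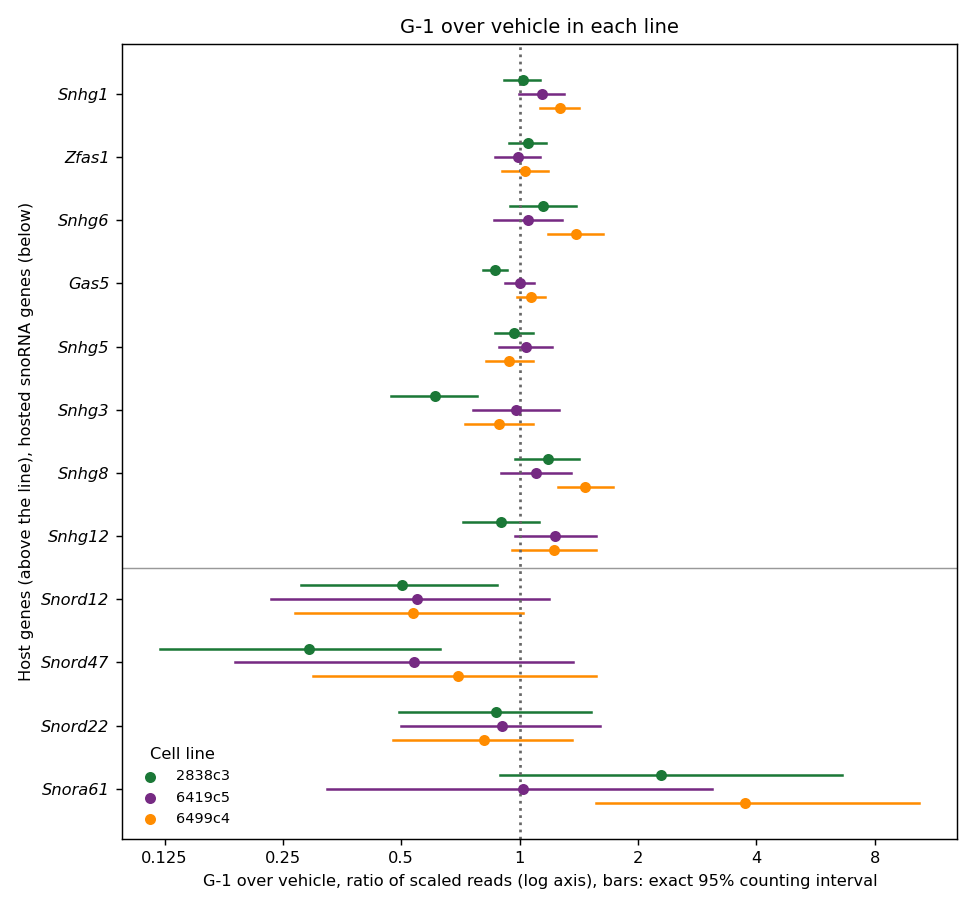
Each point is the ratio of scaled reads, G-1 over vehicle (horizontal log axis), in 1 line for the 8 hosts above the grey line and 4 hosted snoRNA genes below it, with exact 95% counting intervals as bars. Host intervals are narrow and mostly span 1, while Snord12 lies at 0.501, 0.547 and 0.535 in the 3 lines with wide intervals.

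Snord12, the box C/D RNA of Zfas1, was the 1 hosted snoRNA gene that passed, with a lower mean under G-1. It had 20, 10 and 15 reads in the G-1 libraries of 2838c3, 6419c5 and 6499c4, against 40, 24 and 32 reads in the vehicle libraries, or 35.5, 27.8 and 28.3 FPKM against 70.8, 50.9 and 53 FPKM. Every G-1 library lay below every vehicle library, which held for 0.912% of all genes tested. The mean log2 difference was -0.90 (SE 0.06, interval -1.05 to -0.75, lower in 3 of 3 lines, limma adjusted p = 0.00656), beside the 0.0186% of all genes called lower. The 2 genes called lower, of 10748 tested, were Snord12 and 1 of 57 tested snoRNA rows not matched to these hosts. The differences of Snord12 in the 3 lines were -0.98, -0.85 and -0.88. The call was lost in limma-voom on the recovered reads, which gave -0.91 with SE 0.35 and an adjusted p of 0.204. The limma SE of 0.06 reflects 3 close differences and is far narrower than this SE, which weighs the low reads. Without 6419c5 the limma adjusted p was 0.212. Within lines the exact interval excluded 1 in 2838c3 (0.501, 0.278 to 0.878) and spanned it in 6419c5 (0.233 to 1.19) and 6499c4 (0.269 to 1.02).

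Snord47, the box C/D RNA of Gas5 with a row, had 9, 7 and 11 reads in the G-1 libraries, against 31, 17 and 18 reads in the vehicle libraries. Again every G-1 library lay below every vehicle library, as for 0.912% of all genes tested. The levels were 16.2, 19.8 and 21.1 FPKM against 55.7, 36.6 and 30.2 FPKM. The mean log2 difference was -1.02 (SE 0.20, interval -1.49 to -0.56, limma adjusted p = 0.271), and -0.68 without 2838c3. Its limma-voom SE was 0.42 (adjusted p = 0.223). Snord22, whose counterpart in frog oocytes is needed for ribosomal RNA processing, had 26, 22 and 27 reads in the G-1 libraries, against 30, 32 and 38 reads in the vehicle libraries. Its log2 difference was -0.21 (SE 0.07, interval -0.37 to -0.05, limma adjusted p = 0.39), lower in all 3 lines, with overlapping groups. In limma-voom, which weighs the low reads, its SE was 0.31 (adjusted p = 0.821).

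None of the 4 snoRNA genes of Snhg12 passed. Snora61 had 16, 7 and 23 reads in the G-1 libraries, against 7, 9 and 7 reads in the vehicle libraries. It was high under G-1 in 2838c3 and 6499c4 and nearly equal in 6419c5 (20.7 FPKM under G-1, against 20.3 under vehicle). The groups just missed overlapping, and 1.02% of all genes tested had every G-1 library above every vehicle library. Snora61 had a mean log2 difference of 1.00 (SE 0.28, interval 0.34 to 1.66, limma adjusted p = 0.363). It was 0.58 without 6499c4 and 1.48 without 6419c5. Snora16a had 9, 7 and 0 reads in the G-1 libraries, against 5, 12 and 6 reads in the vehicle libraries. Snora44 had 3 reads in each G-1 library, against 7, 6 and 3 in the vehicle libraries, and Snord99 had 2, 8 and 0, against 4, 4 and 3. With so few reads a direction was not detectable in these rows, which had log2 differences of -0.72, -0.46 and -0.77 and limma adjusted p-values of 0.657, 0.511 and 0.699. Snord87 of Snhg6 had 4, 1 and 8 reads in the G-1 libraries, against 3, 2 and 9 reads in the vehicle libraries. Snora24 of Snhg8 was at 0 in all 6 libraries. The counted length of Snhg8 matched its whole RefSeq span, inside which Snora24 lies. Whether reads there could be counted for Snora24 is unknown, since the counting rule was not given, so the 0 does not show that Snora24 was absent.

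Of the 9 hosted rows, 8 passed the level filter and their median log2 difference was -0.59, beside 0.12 for the 57 tested of 101 other snoRNA rows and -0.01 for all genes. They came from a median of 54 reads in all 6 libraries, and the other snoRNA rows from 18, against 2140 for the hosts. Hosted rows were found by GENCODE name, so the other rows may include snoRNAs of these hosts listed under another name. In limma an unadjusted p under 0.05 was reached by 4 of the 8 hosted rows, 16 of the 57 other snoRNA rows and 10.1% of all genes. The counted lengths of the hosted rows with reads, 56 to 136 bases, equalled RefSeq's. For Snord12 that is 66 bases of the 90 annotated by GENCODE, for Snord47 65 of 77 and for Snora61 62 of 130. The TGATGA marked in Snord12 and the ANANNA match marked in Snora61 lie before the RefSeq starts of these genes.

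The reads of Snord12 and Snord47 were also set against those of their hosts, which had log2 differences of 0.03 and -0.04. These ratios reuse the same snoRNA reads and are no separate evidence. Snord12 had 2.95, 2.49 and 3.51 reads per 100 Zfas1 reads in the G-1 libraries, against 6.18, 4.49 and 6.77 in the vehicle libraries. The ratio of these ratios was 0.478 (exact 95% counting interval 0.262 to 0.848) in 2838c3, 0.554 (0.234 to 1.22) in 6419c5 and 0.52 (0.258 to 1) in 6499c4. Snord47 had 0.632, 0.729 and 0.911 reads per 100 Gas5 reads in the G-1 libraries, against 1.88, 1.35 and 1.4 in the vehicle libraries. In both cases the 3 G-1 values lay below the 3 vehicle values, as the snoRNA levels alone did, and the host's groups overlapped. Snord22 had 3.78, 5.07 and 4.12 reads per 100 Snhg1 reads in the G-1 libraries, against 4.42, 6.4 and 6.45 in the vehicle libraries, lower in each line with overlapping groups. Snora61 had 10.3, 5.04 and 16.2 reads per 100 Snhg12 reads in the G-1 libraries, against 4.05, 6.08 and 5.26 in the vehicle libraries. Summed over all hosted rows there were 2.14, 2.41 and 2.37 reads per 100 host reads in the G-1 libraries, against 2.89, 3.12 and 3.11 in the vehicle libraries. A sum without Snord12 and Snord47 was chosen after their values were seen, so it cannot say where that difference lay. It gave 1.44, 1.78 and 1.66 in the G-1 libraries, against 1.27, 1.91 and 1.77 in the vehicle libraries. The groups overlapped, with 2838c3 in the other direction. This sum still held Snora61, with 16, 7 and 23 reads in the G-1 libraries, against 7, 9 and 7 in the vehicle libraries. Reads of a trimmed snoRNA and of the intron still inside its host transcript cannot be told apart here, and a read may have been open to both rows.

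**Figure D4:**
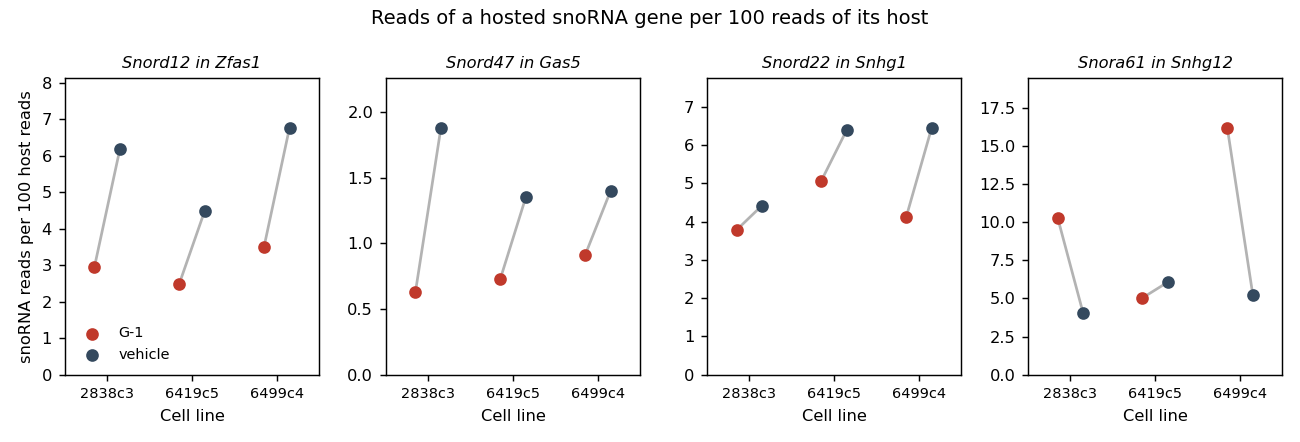
Each panel gives the reads of 1 hosted snoRNA gene per 100 reads of its host (vertical axis, from 0) in the 3 lines, G-1 in red left of vehicle in blue, 1 library per point. Snord12 per Zfas1 and Snord47 per Gas5 are lower under G-1 in every line, and Snora61 per Snhg12 is higher under G-1 in 2838c3 and 6499c4 but not in 6419c5.

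The hosts that differed between lines depended on the pair. Between 2838c3 and 6419c5, 2 of 8 hosts passed in limma, where 51.5% of all genes did, 1 host higher and 1 lower beside 25.3% and 26.2% of genes. Between 2838c3 and 6499c4, 6 of 8 passed, where 55.6% of all genes did, 3 higher and 3 lower beside 28.9% and 26.6% of genes. Between 6419c5 and 6499c4, 3 of 8 passed, where 45% of all genes did, all 3 higher beside 23.7% of genes higher and 21.3% lower. Each line is represented by its G-1 and its vehicle library, and the p-values measure the spread between these after the mean treatment difference is taken out.

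Snhg5 set 2838c3 apart. Its level was 74.7 FPKM under G-1 and 77.2 under vehicle in 2838c3, against 51.8 and 50 for 6419c5 and 47.5 and 50.5 for 6499c4, so that both libraries of 2838c3 lay above the other 4. The log2 difference was 0.57 (SE 0.07, limma adjusted p = 7.03e-04) for 2838c3 minus 6419c5 and 0.62 (SE 0.07, limma adjusted p = 3.66e-04) for 2838c3 minus 6499c4, and both calls held in all 10 alternatives. The share of all genes in which the libraries of 1 line lay apart from the other 4 was not counted. Zfas1 set 6499c4 apart, with 72.2 and 70 FPKM there and 100 to 108 in the other 4 libraries. It was higher by 0.56 on the log2 scale in 2838c3 (limma adjusted p = 4.23e-04) and by 0.50 in 6419c5 (limma adjusted p = 0.00105) than in 6499c4, again in all 10 alternatives. Gas5 was higher in the same lines by 0.30 and 0.27 (SE 0.09 each, limma adjusted p = 0.024 and 0.041), and each of these calls held in 5 of 10 alternatives. The Gas5 calls were lost without the vehicle library of 6499c4 and without either library of 6419c5 (highest adjusted p over the alternatives 0.246 and 0.249), and that of 2838c3 also without its vehicle library.

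Snhg6, Snhg3 and Snhg8 ran the other way, lowest in 2838c3. Snhg6 was lower in 2838c3 than in 6499c4 (log2 difference -0.51, SE 0.10, limma adjusted p = 0.00407), in all 10 alternatives, and lower than in 6419c5 (-0.38, SE 0.10, limma adjusted p = 0.0169), in 6 of 10. The call against 6419c5 was lost without either library of 2838c3 or the vehicle library of 6419c5 (highest adjusted p over the alternatives 0.173). Snhg3 was lower in 2838c3 than in 6499c4 (-0.61, SE 0.15, limma adjusted p = 0.0105), and missed the threshold against 6419c5 (-0.41, limma adjusted p = 0.0505). The difference from 6419c5 passed in 4 of 10 alternatives (adjusted p 0.00314 to 0.47), and was -0.71 without the vehicle library of 2838c3, -0.62 without that of 6419c5, -0.11 without the G-1 library of 2838c3 and -0.21 without that of 6419c5. Snhg8 was lower in 2838c3 than in 6499c4 (-0.39, SE 0.11, limma adjusted p = 0.0182). Without the G-1 library of 2838c3 or that of 6499c4, the calls of Snhg3 and Snhg8 were lost (highest adjusted p over the alternatives 0.0675 and 0.162). Snhg12 was higher in 6419c5 than in 6499c4 (0.50, SE 0.12, limma adjusted p = 0.0124), which was lost without the G-1 library of 6419c5 or the vehicle library of 6499c4 (highest adjusted p over the alternatives 0.145). Snhg1 passed in no pair, with log2 differences of 0.10, 0.14 and 0.04.

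With single libraries left out, the number of hosts called for 2838c3 minus 6419c5 was 1 without the G-1 library of 2838c3 or the vehicle library of 6419c5 and 4 without either library of 6499c4. For 6419c5 minus 6499c4 it was 1 without the G-1 library of 6419c5 or the vehicle library of 6499c4. Of the 8 hosted rows tested, 3 passed for 2838c3 minus 6419c5, 2 for 2838c3 minus 6499c4 and 4 for 6419c5 minus 6499c4. Of all genes, 51.5%, 55.6% and 45% did. Snord87 passed in each pair, and Snora16a, Snora44 and Snord99 for 6419c5 minus 6499c4, all rows with 21 to 39 reads. Among the hosted rows with at least 60 reads, Snord12 was higher in 2838c3 than in 6419c5 (0.40, limma adjusted p = 0.00391) and 6499c4 (0.36, limma adjusted p = 0.00549). Snord22 was lower in 2838c3 than in 6419c5 (-0.37, limma adjusted p = 0.00815). In limma-voom the adjusted p-values of these 3 differences were 0.383, 0.384 and 0.4.

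**Figure D5:**
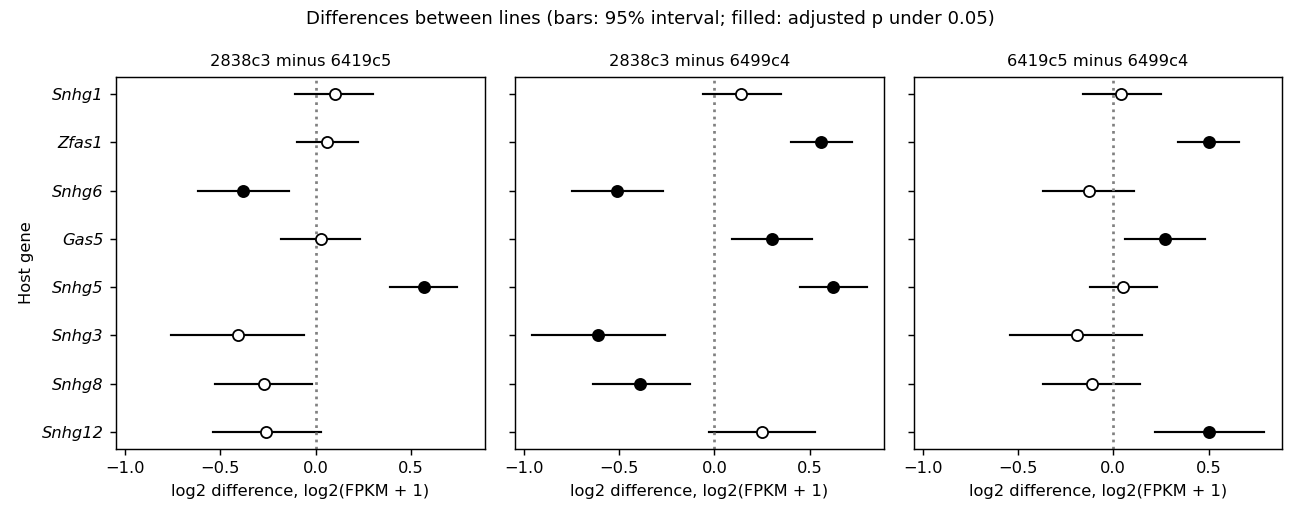
Each panel is 1 pair of lines, with the log2 difference of each host on the log2(FPKM + 1) scale (horizontal axis, first line minus second), bars for the 95% interval and filled points for an adjusted p under 0.05. Snhg5 is higher in 2838c3 than in both other lines (0.57 and 0.62), and Zfas1 is lower in 6499c4 than in both other lines.

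The hosts did not vary as 1 group over the libraries. Of the 28 pairs of hosts, Pearson's r of log2(FPKM + 1) over the 6 libraries was above 0 in 16 and below 0 in 12. These are descriptions over libraries that share lines. Snhg6 and Snhg8 were the most alike (r = 0.97), followed by Gas5 and Zfas1 (r = 0.87), and Snhg5 and Snhg6 were the most opposed (r = -0.86). The mean centred level of the 8 hosts was -0.05, 0.11 and 0.04 in the G-1 libraries of 2838c3, 6419c5 and 6499c4, against 0.03, 0.02 and -0.15 in the vehicle libraries, on the log2 scale. The genes closest to that mean profile, among 8214 with at least 5 FPKM, were BC029722 (r = 0.966), Lxn (0.944), Bcl10 (0.928), Maz (0.923) and Bag3 (0.922), over the same 6 libraries.

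Genes around the hosts' pathway were counted in the same fit, and none passed for G-1 in any of the 5 lists. Of 10 other non-coding hosts tested (median log2 difference 0.13), the widest differences were 0.70 in Snhg20, 0.66 in Snhg9 and 0.34 in Dancr, with limma adjusted p-values of 0.516, 0.565 and 0.548. Of 30 protein-coding hosts (median 0.05), 7 were higher and 3 lower in all 3 lines, or 23.3% and 10%, beside 15.4% and 17.5% of all genes. Rpl27a, a protein of the large ribosomal subunit, had 90.4, 160 and 253 FPKM in the G-1 libraries, against 55.1, 134 and 141 FPKM in the vehicle libraries, a log2 difference of 0.60 (SE 0.11, limma adjusted p = 0.219). Rpl13 and Rplp2, also of that subunit, had differences of 0.31 and 0.25.

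Proteins that build snoRNA particles (18 tested, median -0.03) included Znhit3 and Ruvbl1, assembly factors with log2 differences of -0.26 and -0.20, lower in all 3 lines, and Pih1d1, part of the same chaperone machinery, with 0.24, higher in all 3. Their limma adjusted p-values were 0.418, 0.373 and 0.411. Factors of nonsense-mediated decay (15 tested, median -0.02) included Smg9, of the complex that phosphorylates Upf1, with 0.18, and the core factor Upf2 with -0.15, at limma adjusted p-values of 0.513 and 0.626. Known targets of that decay (12 tested, Gas5 among them, median -0.03) included the stress transcription factors Ddit3 with 0.35 and Atf4 with 0.19, both higher in all 3 lines, and Tbl2 with -0.15, with limma adjusted p-values of 0.455, 0.398 and 0.606. Between lines, 3 of the 10 other non-coding hosts passed for 2838c3 minus 6419c5 (51.5% of all genes did), 6 for 2838c3 minus 6499c4 (55.6%) and 4 for 6419c5 minus 6499c4 (45%), each of them lower in the line named first, where 26.2%, 26.6% and 21.3% of all genes were called lower.

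Genes that overlap a host could share its reads, since whether reads were counted by strand is unknown. Rcc1, a regulator of chromatin condensation on the strand of Snhg3, overlaps 5592 of the 5673 bases that Snhg3 spans in GENCODE. Only 437 bases were counted for Snhg3, whose RefSeq span is 1754 bases. Rcc1 had a log2 difference of -0.08 (SE 0.07, limma adjusted p = 0.716). Zbtb37 overlaps Gas5 by 428 bases and Znfx1 overlaps Zfas1 by 82 bases, both on the opposite strand, with -0.15 and -0.06. Zbtb37 had 1.87, 1.14 and 1.99 FPKM in the G-1 libraries, against 2.74, 1.15 and 2.14 FPKM in the vehicle libraries, far below Gas5. Mcmdc2, opposite Snhg6 over 127 bases, was at 0 reads in every library. The part of shared reads in the hosts' values was not tested.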

How the data were processed

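The authors deposited 1 table of FPKM values, 24421 gene rows by 6 libraries; each of the 6 columns was used and 0 per-sample columns were left out. Libraries were made with an NEBNext Ultra kit, per the labels' protocols. The submitters' processing notes list the aligner STAR and DESeq2, used by the authors in a role not stated. The build, annotation, strand use and counting rule were not given in the sources used here. Values of a gene in a library were multiples of 1 step, and for all 15712 genes above 0 they gave whole reads within 0.01 reads.

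Version 3.58.1 of limma under R 4.3.3 set G-1 against vehicle on log2(FPKM + 1), which understates changes of low genes, for the 10748 genes whose mean reached 1 FPKM, with cell line as block, a variance trend and Benjamini-Hochberg adjustment at 0.05, two-sided. Pairs of lines were compared in the same model. Residual degrees of freedom were 2 and the prior added 5.35. The pairing comes from the design, since G-1 and vehicle libraries share a line, and their deviations correlated at 0.906, 0.871 and 0.882. P-values measure only the spread between these libraries, which may be technical.

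Intervals of read ratios are exact binomial ones and, like the floor of 3 reads, cover counting error only. Hosted snoRNA genes are rows, matched by GENCODE name only, whose GENCODE M21 interval lies inside a host on its strand. Named were the 8 hosts, every hosted row, the 3 members of each list with the largest mean difference and the 5 genes most like the hosts' mean. A few genes from these lists are left unnamed but remain part of all fits and sums. The members and lists were chosen with earlier results of these data known. Alternatives changed the pseudocount (0.1), the filter (none, 5 FPKM), the block, the trend, the scaling (quantile) and the test (limma-voom on genes with at least 60 reads in all), corrected for GC content and length, or left out a line or library.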

Additional observations from a re-analysis of the deposited data

How the results depend on the processing

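No host passed for G-1 under any of the 11 alternatives, and Snhg1, Snhg6, Snhg8, Snhg12 and Snhg3 kept their direction in each. Over all genes, 3 passed, against 1 with a pseudocount of 0.1, 0 without a filter, 6 with a filter of 5 FPKM, 0 without the variance trend, 181 in limma-voom on recovered reads and 1 with the replicate block and a correction for GC content and length. Without the replicate block, 0 genes and 0 hosted snoRNA genes passed, and the limma adjusted p of Snord12 was 1. Leaving out 1 line gave 0 to 11 genes and 0 to 1 hosted snoRNA genes. The 1 hosted call, Snord12, held in 5 of 11 alternatives (log2 difference -1.02 to -0.86, adjusted p 0.00197 to 1). It was lost, giving 0 hosted calls, without a filter, without the block, without the trend, in limma-voom, with the GC and length correction and without 6419c5. The cause was not tested.

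Directions that turned belonged to differences that had not passed in limma. Zfas1 under G-1 was -0.04 with the GC and length correction. Leaving out 1 line gave -0.10 to 0.05 in Gas5, -0.07 to 0.002 in Snhg5, -0.22 to 0.19 in Snord87, -1.45 to 0.19 in Snora16a and -1.81 to 0.23 in Snord99.

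For 2838c3 minus 6419c5, 1 host passed without a filter, in place of 2, and 1 to 4 with a library left out, beside 3430 to 5677 genes in place of 5533 (3430 and 3590 without the vehicle or the G-1 library of 6419c5). Snora61 was 0.02 in limma-voom, and leaving out a library gave -0.76 to 0.70 in Snora61, -0.10 to 0.15 in Gas5, -0.02 to 0.22 in Snhg1 and -0.36 to 0.68 in Snord47. For 2838c3 minus 6499c4 the counts stayed within 1.5 times, and leaving out a library gave -0.27 to 0.77 in Snord47 (-0.14 without the vehicle library of 6499c4) and -0.87 to 0.37 in Snora61. For 6419c5 minus 6499c4, 1 to 3 hosts and 2612 to 4708 genes passed with a library left out, in place of 3 and 4836 (2612 and 3003 genes without the G-1 or the vehicle library of 6419c5). Snhg1 and Snhg5 were each -0.02 under quantile scaling. Leaving out a library gave -0.08 to 0.16 in Snhg1, -0.003 to 0.11 in Snhg5, -0.40 to 0.01 in Snhg3, -0.30 to 0.07 in Snhg8, -0.30 to 0.04 in Snhg6, -0.31 to 0.48 in Snord47 and -0.95 to 0.51 in Snora61 (0.40 without the G-1 library of 6499c4). In these fits the lone library of a line is assumed to vary like the others. Depth limits the hosted rows, read 21 to 175 times in all where not at 0, while the hosts were read 890 to 7792 times.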
